A study of Mus musculus with 9 samples.

Results

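The genes described here encode the subunits of voltage-gated sodium and calcium channels in mouse retinal ganglion cells (RGCs). They were chosen by symbol alone, as every gene whose symbol starts with Cacna, Cacnb, Cacng or Scn followed by a digit, and 40 of the 23997 symbols in the data met this rule. RGCs are the neurons that send the output of the retina to the brain, and they were isolated by immunopanning with an antibody against Thy1 from C57BL/6J mice given as 8 weeks old. Eyes of the Control group had received saline in the anterior chamber. Eyes of the Mild IOP and Moderate IOP groups had received microbeads, which raise intraocular pressure (IOP), and were placed in one group or the other by how far their pressure rose over 2 weeks. The RNA of each group was pooled over animals of both sexes and divided into 3 technical replicates, and the Moderate IOP pool held fewer retinas than the others. The replicates of a group therefore share 1 pool, so each SD, SE and FDR below covers technical variation and not variation between animals, and the condition of a group cannot be told apart from its pool. In bulk RNA, fewer cells of a type and less RNA per cell cannot be told apart.

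A voltage-gated sodium channel (Nav) is built around 1 pore-forming alpha subunit (Scn genes ending in a) that opens upon depolarization and drives the upstroke of the action potential, and it is joined by beta subunits (Scn genes ending in b) that adjust its gating and anchor it in the membrane. Voltage-gated calcium channels (Cav) have a pore-forming alpha1 subunit of the L type (Cav1), of the P/Q, N and R types (Cav2) or of the low-voltage-activated T type (Cav3). In Cav1 and Cav2 channels it assembles with an intracellular beta subunit (Cacnb), which brings the pore to the plasma membrane, and with an extracellular alpha2delta subunit (Cacna2d), which increases the number of channels at the surface and at the presynaptic terminal. The Cacng family includes a true channel subunit of skeletal muscle (Cacng1) and the transmembrane AMPA receptor regulatory proteins (TARPs), which bind AMPA-type glutamate receptors. In RGCs, Nav channels are concentrated at the axon initial segment, where spikes start.

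Expression was deposited as FPKM, which divides the fragments of a gene by its transcript length and by the size of the library. Levels can then be compared between genes as far as the transcript length used is right. Values below are FPKM divided by a scaling factor for each library, named scaled FPKM, and fold changes were taken after adding 1 and converting to log2, which understates the change of low genes. The depth derived from the deposited confidence intervals lay between 4590000 and 8230000 fragments per library. All 10 RGC markers listed were detected, and their summed level was 1450 to 1533 scaled FPKM in Control, 1065 to 1311 with Mild IOP and 2289 to 2434 with Moderate IOP. At an FDR below 0.1, 6 of 10 were higher in Moderate IOP than in Mild IOP, against 7.03% of all tested genes. Against Control, 2 of 10 were higher in Moderate IOP, where 1.84% of all tested genes passed in either direction. Most of the RGC marker sum was Sncg (854.7 to 947.6, 506.6 to 715.9 and 1357 to 1424) and Nefl. The RGC transcription factor Pou4f1 (17.2 to 19.2, 12.8 to 18.3 and 24.4 to 34.7) was also higher in all Moderate IOP libraries than in both other groups. The same held for Thy1, Nefm and Rbpms. For Pou4f2 (8.98 to 10.2, 8.01 to 8.63 and 7.16 to 10.7), Pou4f3, Isl1 and Slc17a6, the Moderate IOP libraries overlapped with those of both other groups. The 8 amacrine cell markers summed to 766.9 to 814.8, 842.5 to 901.7 and 548.5 to 598.5, with Gad1 the highest of them. In Moderate IOP, 3 of 8 were lower than in Mild IOP (3.12% of all tested genes) and 2 of 8 than in Control (0.889%). All Moderate IOP libraries of Gad1, Gad2 and Slc6a9 lay below both other groups. Tfap2a lay above Control in all of them (6.35 to 10.2 against 5.24 to 6.16). Slc32a1, Tfap2b, Chat and Slc18a3 overlapped with both other groups. The 6 rod markers summed to 418.7 to 510.5, 279.1 to 320.4 and 281.0 to 317.6. Of these, 3 of 6 were lower in Moderate IOP than in Control (0.889%) and 2 of 6 in Mild IOP than in Control (0.399% called in either direction). Lens crystallin and Mip transcripts (4 markers) summed to 213.4 to 278.8 in Control, 0.394 to 1.20 with Mild IOP and 0 with Moderate IOP. The part of these cell types in the channel results was not tested.

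Of the 40 channel genes, 29 had a mean of at least 0.5 scaled FPKM and were tested. The 11 others were Scn4a, Scn7a, Scn10a, Scn11a, Scn4b, Cacna1c, Cacna1e, Cacna1s, Cacng1, Cacng6 and Cacng8. None of the 11 exceeded 1.05 scaled FPKM in a library, and Scn10a and Cacng6 were listed at 0 in all 9 libraries. Several of these belong to other tissues: Scn4a and Cacna1s are the skeletal muscle pores, and Scn10a and Scn11a are known from pain-sensing neurons. Several auxiliary subunits and TARPs had a higher scaled FPKM than any pore. Their transcripts are shorter than those of the pores, and the part of length in this order was not tested. Cacng4 rests on 143.0 to 316.8 derived fragments per library, against 486.9 to 1115 for Scn1a. The highest of the 40 was Cacng3, with a mean of 149.9 scaled FPKM over the 9 libraries and 94.7% of all tested genes below it, and high levels were also measured for Cacng4 at 42.0, Cacnb3 at 38.6, Cacng5 at 28.9, Scn3b at 27.7 and Cacna2d3 at 18.1. The first pore in this order was Scn1a at 12.8, below Cacnb1 at 13.6. The median of the 29 tested channel genes was 5.35 scaled FPKM, against 8.55 over all 13043 tested genes. Within groups, the coefficient of variation between libraries had a median of 17.3% in Control, 17.0% with Mild IOP and 22.2% with Moderate IOP over the 29 genes.

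**Figure D1:**
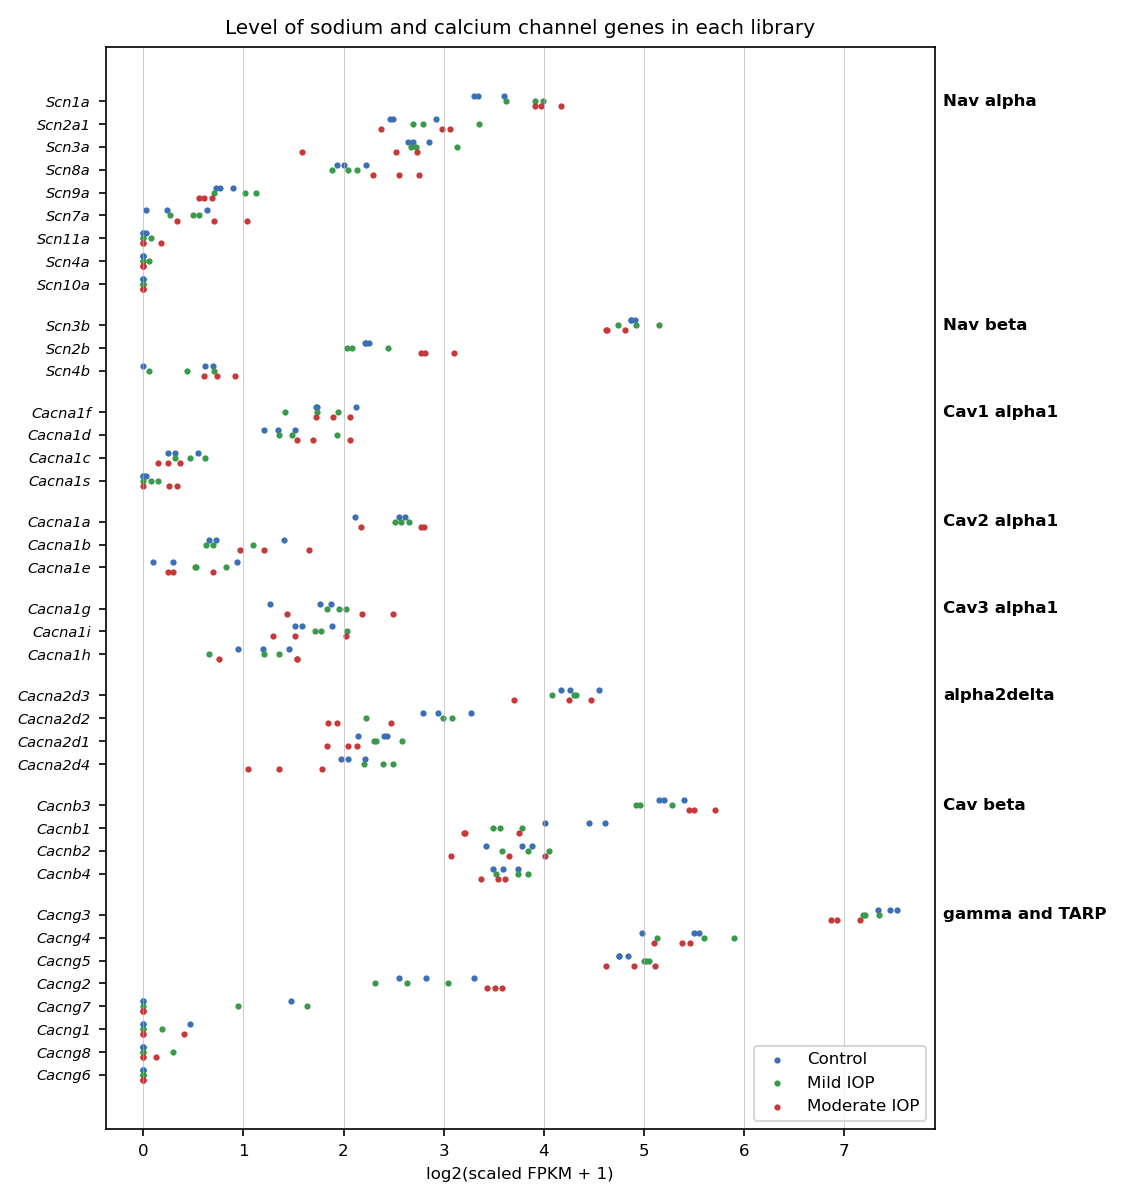
Level on the log2(scaled FPKM + 1) axis, for the channel genes, with 1 point per library and genes ordered by subunit class and mean level. Cacng3 stands to the right of all others in every library, while 11 genes sit near 0 and were not tested.

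Over the 3 comparisons, the channel genes gave 5 calls. Between Mild IOP and Control, 0 of 29 passed an FDR of 0.1 in limma, where 0.399% of all tested genes did, and 2 (Cacnb1 and Scn1a) had an unadjusted p below 0.05, where 10.2% of all tested genes did. Between Moderate IOP and Control, 1 of 29 passed, the calcium channel subunit gene Cacnb1, which was lower in Moderate IOP, against 1.84% of all tested genes (0.889% lower). Between Moderate IOP and Mild IOP, 4 of 29 passed, against 10.2% of all tested genes. Scn2b, Cacnb3 and Cacng2 were higher in Moderate IOP (7.03% of all tested genes) and Cacna2d4 was lower (3.12% of all tested genes). The called shares of the channel genes, 3.45% and 13.8%, rest on so few genes that 1 call more or less moves them by 3.45 percentage points.

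The libraries of the groups did not overlap for more genes than were called. In Mild IOP against Control, all 3 libraries lay on one side of the other 3 for 4 of 29 channel genes (13.8%), against 17.1% of all tested genes. In Moderate IOP against Control this held for 13 of 29 (44.8%), against 19.4% of all tested genes, with 6 of 29 higher (Scn1a, Scn8a, Scn2b, Cacna1d, Cacnb3 and Cacng2, against 9.95% of all tested genes) and 7 of 29 lower (Scn9a, Scn3b, Cacna2d1, Cacna2d2, Cacna2d4, Cacnb1 and Cacng3, against 9.48%). In Moderate IOP against Mild IOP it held for 9 of 29 (31.0%), against 27.5% of all tested genes. The median log2 fold change of the 29 genes was 0.08 in Mild IOP against Control, -0.03 in Moderate IOP against Control and -0.14 in Moderate IOP against Mild IOP, where the medians of all tested genes were 0.006, 0.004 and -0.016. The 3 comparisons share their groups and are not independent of one another.

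**Figure D2:**
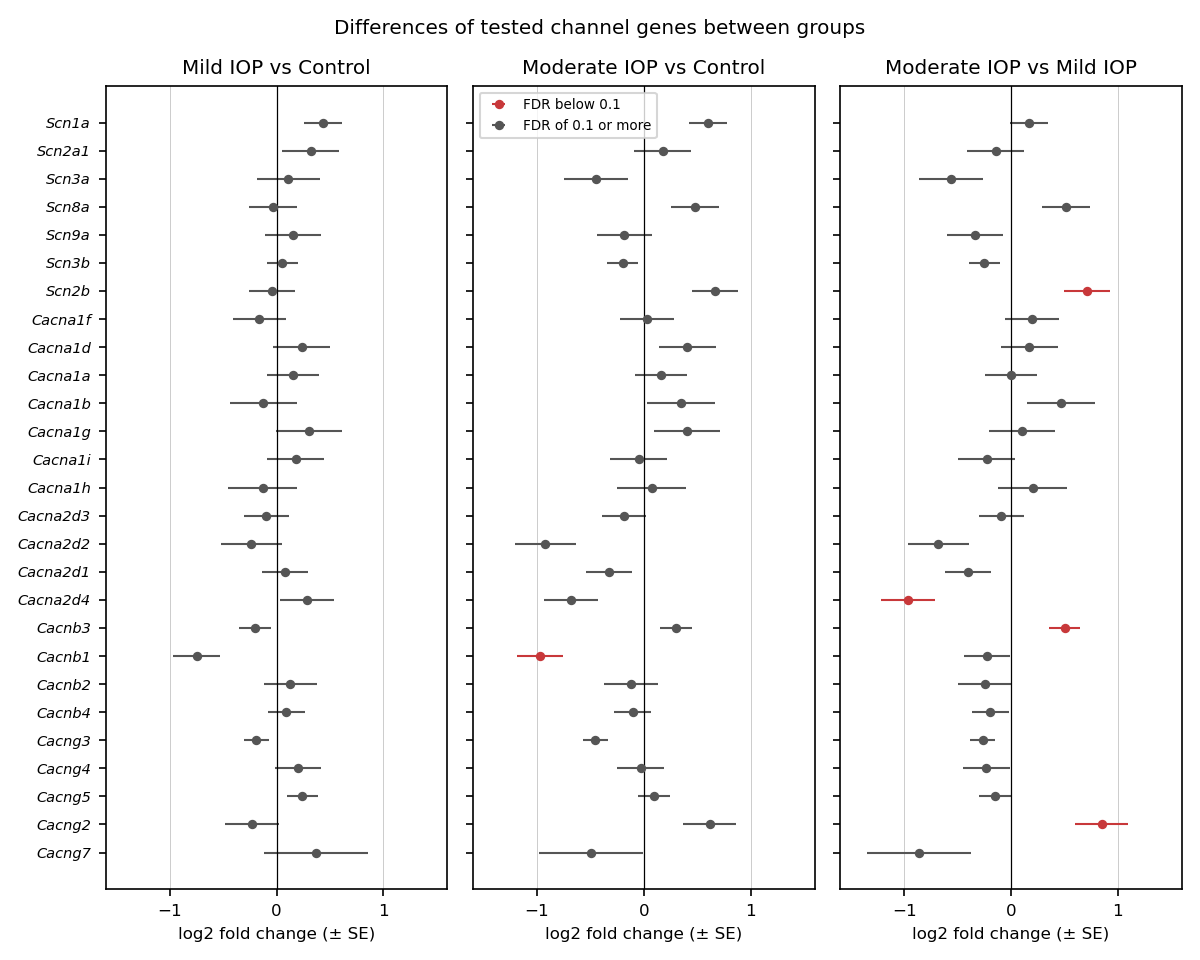
Log2 fold change of tested channel genes in the 3 comparisons, on the log2(scaled FPKM + 1) scale, with bars of 1 SE and genes with an FDR below 0.1 in red. Cacnb1 is the red gene in the middle panel, and Scn2b, Cacna2d4, Cacnb3 and Cacng2 are red in the right panel.

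Among the pore-forming sodium channel subunits, 6 of 10 were tested and 0 of 6 passed the test in any comparison. Scn1a, which encodes Nav1.1, was the most abundant in every library, with 35.4% to 48.4% of the summed Nav alpha level. It measured 9.15, 8.84 and 11.1 scaled FPKM in the Control libraries, 14.1, 15.0 and 11.3 in the Mild IOP libraries and 14.0, 14.7 and 17.0 in the Moderate IOP libraries. All 6 libraries of the IOP groups lay above the 3 Control libraries, Mild IOP replicate 3 only just. The log2 difference to Control was 0.43 ± 0.18 (SE) for Mild IOP (FDR = 0.42) and 0.60 ± 0.18 for Moderate IOP (FDR = 0.16), so neither was called. Its share of the Nav alpha sum was 36.8% ± 1.39 (SD, n = 3) in Control, 41.8% ± 3.23 with Mild IOP and 46.2% ± 3.57 with Moderate IOP.

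Scn3a (Nav1.3), Scn2a1 (Nav1.2) and Scn8a (Nav1.6, the alpha subunit of mature nodes of Ranvier) came next. In Control, Scn3a had 5.65 ± 0.515 scaled FPKM (SD, n = 3) and Scn2a1 5.24 ± 1.17, which did not differ beyond their spread, and Scn8a had 3.17 ± 0.440, below both. Scn8a measured 2.84, 3.00 and 3.67 in Control, 2.69, 3.12 and 3.39 with Mild IOP and 4.87, 3.91 and 5.72 with Moderate IOP. Its 3 Moderate IOP libraries lay above the 6 others, with a log2 difference of 0.48 ± 0.22 (SE) to Control (FDR = 0.34) and of 0.51 ± 0.22 to Mild IOP (FDR = 0.21). Scn3a ranged from 5.25 to 6.23 in Control, from 5.37 to 7.79 with Mild IOP and from 2.00 to 5.66 with Moderate IOP, and these ranges overlapped. Scn2a1 overlapped between all groups, at 4.51 to 6.59, 5.49 to 9.21 and 4.18 to 7.34. Scn9a (Nav1.7) had a mean of 0.741 over the 9 libraries, and the libraries of Scn9a were lower in Moderate IOP (0.472 to 0.605) than in Control (0.655 to 0.866). A transcript model that overlaps the Scn9a locus, Gm13629, measured 17.4 to 32.5 scaled FPKM, and the library kit did not mark strand. Scn3a, Scn2a1, Scn1a, Scn9a and Scn7a lie in this order on chromosome 2 between 65457118 and 66784910 in mm10. A gap from 65767447 to 66270782 separates Scn2a1 from Scn1a. Of these genes, Scn1a was the one whose Control libraries overlapped with neither IOP group.

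Of the sodium channel beta subunits, 3 of 4 were tested and Scn2b was the 1 that passed the test, in Moderate IOP against Mild IOP. Scn2b, which is linked to the alpha subunit by a disulfide bond, lies at chr9:45117876-45130070 and measured 3.63, 3.68 and 3.78 scaled FPKM in the Control libraries, 3.23, 3.11 and 4.46 in Mild IOP and 7.61, 5.83 and 6.03 in Moderate IOP. The 3 Moderate IOP libraries lay above all 6 others. Scn2b was 1.63-fold higher, with 1 added to each value, in Moderate IOP than in Mild IOP (log2 0.71 ± 0.22 SE, FDR = 0.083). The difference to Control had a similar size but was not called (log2 0.67 ± 0.22, FDR = 0.18). The values rest on 87.9 to 230.5 derived fragments per library. The call was kept in 2 of 9 fits that left out a library, those without Control replicate 3 or Mild IOP replicate 3, and lost in the others with an FDR up to 0.27 (without Mild IOP replicate 2). With the replicate number as a block, the FDR was 0.13. The call was also lost with FPKM left unscaled (FDR = 0.108) and with upper quartile scaling (FDR = 0.110).

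Scn3b, a single-span membrane protein with an immunoglobulin domain, ranged from 28.2 to 29.1 in Control, 25.8 to 34.5 with Mild IOP and 23.7 to 27.0 with Moderate IOP, so that Moderate IOP lay below Control in all libraries without passing the test (log2 -0.20 ± 0.15, FDR = 0.56).

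**Figure D3:**
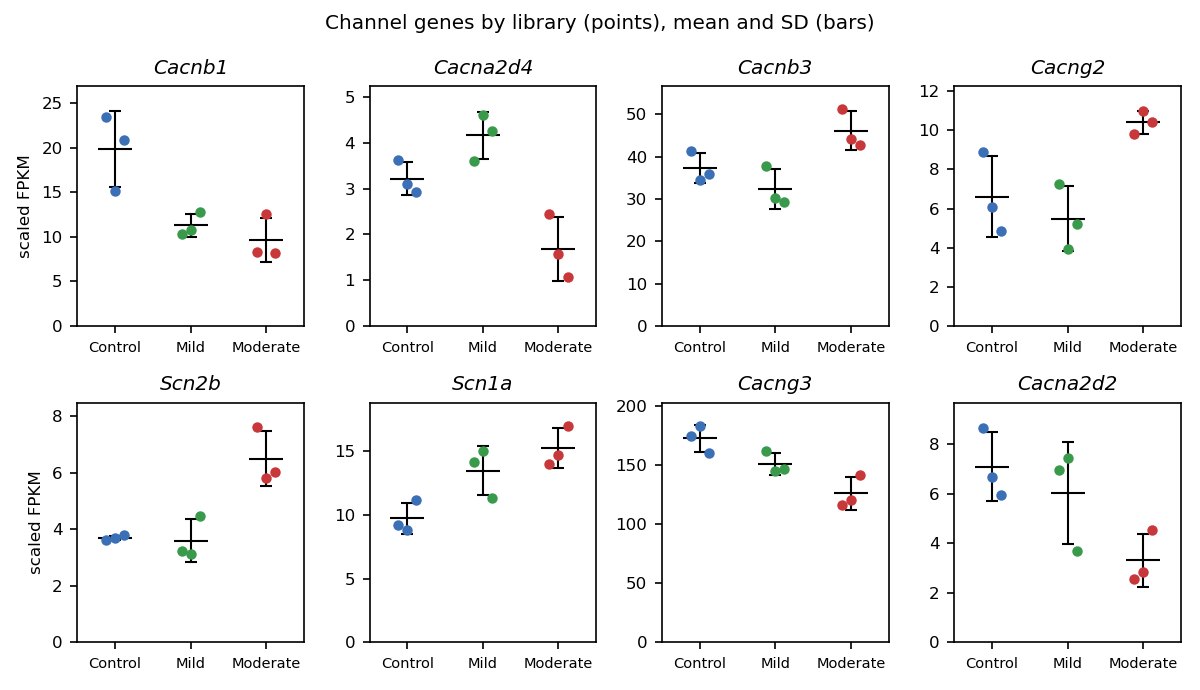
Scaled FPKM of 8 channel genes in each library (points), with the mean and SD of each group of 3 technical replicates (bars) and all axes starting at 0. Cacnb1 is highest in Control, Cacnb3, Cacng2 and Scn2b are highest in Moderate IOP, and Cacna2d4 is lowest in Moderate IOP.

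The pore-forming calcium channel subunits were low, and 0 of the 7 tested (of 10) passed the test in any comparison. Cacna1a, the P/Q-type pore that triggers release at many central synapses, was the highest, with 3.33, 4.89 and 5.10 scaled FPKM in Control, 5.29, 4.96 and 4.73 with Mild IOP and 5.98, 3.51 and 5.86 with Moderate IOP. It overlapped between all groups and held 69.1% to 84.7% of the summed Cav2 level. Cacna1b (N type) ranged from 0.543 to 2.16 over the 9 libraries. The L-type pores were led by Cacna1f, which is known from photoreceptor terminals, and Cacna1d, at means of 2.56 and 2.03, while the cardiac and neuronal L-type pore Cacna1c stayed below the level tested, at a mean of 0.292. Cacna1d was higher in all Moderate IOP libraries (1.90 to 3.18) than in all Control libraries (1.31 to 1.86), with a log2 difference of 0.41 ± 0.27 (SE, FDR = 0.51). The gene Dcp1a, whose locus overlaps that of Cacna1d, measured 0.866 to 3.60 scaled FPKM, and strand was not marked. All 3 T-type pores were tested, at means of 2.77 for Cacna1g, 2.30 for Cacna1i and 1.32 for Cacna1h, and their libraries overlapped in every comparison. The summed Cav1, Cav2 and Cav3 levels of 4.53 ± 0.801, 5.80 ± 1.00 and 5.67 ± 0.714 (SD, n = 3) in Control overlapped in their spread, so these types have no clear order there. With Mild IOP, the Cav1 sums (4.41 to 4.99) lay below the Cav2 sums (6.28 to 6.34) and the Cav3 sums (6.25 to 6.79). With Moderate IOP the sums overlapped.

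All 4 alpha2delta genes were tested and all 4 had lower means in Moderate IOP than in either other group, with a median log2 difference of -0.50 to Control and of -0.54 to Mild IOP, but 1 of 4 passed the test. That gene was Cacna2d4 (chr6:119236526-119352407), whose protein serves the L-type channel of photoreceptor terminals. It measured 3.64, 3.11 and 2.92 scaled FPKM in Control, 3.62, 4.62 and 4.26 with Mild IOP and 2.44, 1.56 and 1.07 with Moderate IOP. All Moderate IOP libraries lay below the 6 others. With 1 added to each value, the level in Moderate IOP was 0.511 times that in Mild IOP (log2 -0.97 ± 0.25 SE, FDR = 0.049). The means without the added 1 were 1.69 in Moderate IOP and 4.17 in Mild IOP. The log2 difference of Cacna2d4 between Moderate IOP and Control was -0.68 ± 0.25 (FDR = 0.24). These values rest on 37.6 to 194.0 derived fragments. The call was kept in 4 of 9 fits that left out a library and lost without any 1 of the Mild IOP libraries and without Moderate IOP replicates 2 or 3, with an FDR of 0.10 to 0.18. It was also lost when the trend with transcript length was removed (log2 -0.82, FDR = 0.14). The gene Lrtm2, whose locus overlaps that of Cacna2d4, measured 36.6 to 55.3 scaled FPKM, and fragments of overlapping loci cannot be told apart without strand. Cacna2d4 is known from photoreceptors and bipolar cells. The 6 rod markers summed to about the same range in both IOP groups (given above) and the 6 bipolar cell markers to 31.2 to 34.1 in Mild IOP against 26.7 to 33.6 in Moderate IOP, and their part was not tested.

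Cacna2d3 was the most abundant alpha2delta gene, with 52.2% to 71.6% of the class, at 17.0 to 22.4 scaled FPKM in Control, 15.9 to 19.0 with Mild IOP and 12.1 to 21.2 with Moderate IOP. Cacna2d2 measured 8.65, 6.69 and 5.95 in Control, 6.94, 7.46 and 3.68 with Mild IOP and 2.58, 2.83 and 4.55 with Moderate IOP. Its Moderate IOP libraries lay below the Control libraries, and Mild IOP replicate 3 lay among them. The log2 difference of Cacna2d2 to Control was -0.92 ± 0.29 (SE, FDR = 0.17), and its difference to Mild IOP of -0.68 ± 0.29 (FDR = 0.19) became -0.95 (FDR = 0.079) without Mild IOP replicate 3. Cacna2d1, the binding site of gabapentin together with Cacna2d2, ranged from 3.42 to 4.39 in Control, from 3.93 to 5.00 with Mild IOP and from 2.57 to 3.38 with Moderate IOP, without overlap between Moderate IOP and the other groups and without passing the test (log2 -0.32 ± 0.22 against Control, FDR = 0.52).

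The 4 Cav beta genes, all tested, gave 2 of the 5 calls, with Cacnb1 lower in Moderate IOP than in Control and Cacnb3 higher in Moderate IOP than in Mild IOP. Cacnb1 (chr11:98001508-98022627) encodes the beta subunit known from skeletal muscle and brain. It measured 23.5, 15.2 and 20.9 scaled FPKM in the Control libraries, 10.3, 10.8 and 12.8 in the Mild IOP libraries and 8.25, 12.5 and 8.20 in the Moderate IOP libraries. All 6 libraries of the IOP groups lay below the 3 Control libraries, and the Mild and Moderate IOP libraries overlapped. Cacnb1 in Moderate IOP was, with 1 added to each value, at 0.511 times the Control level (log2 -0.97 ± 0.22 SE, FDR = 0.073). In Mild IOP the log2 difference of Cacnb1 to Control was -0.75 ± 0.22 (FDR = 0.24), and between Moderate and Mild IOP it was -0.22 ± 0.22 (FDR = 0.60), so the 2 IOP groups were not shown to differ. The values rest on 74.7 to 285.4 derived fragments.

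The call of Cacnb1 was kept in 4 of 9 fits that left out a library, and it was lost without Control replicate 1 (log2 -0.84, FDR = 0.23), Control replicate 3 (FDR = 0.13), Mild IOP replicate 1 (FDR = 0.12), Moderate IOP replicate 1 (FDR = 0.16) or Moderate IOP replicate 3 (FDR = 0.16). The log2 difference lay between -1.16 and -0.84 over these 9 fits, and with the replicate number as a block the FDR was 0.14. The 5 skeletal muscle markers listed summed to 5.93 to 8.996 scaled FPKM in Control, 3.22 to 6.96 with Mild IOP and 3.95 to 10.5 with Moderate IOP. Most of this was Acta1, with Mylpf at most 1.56 and Ckm, Myh4 and Tnnt3 at 0 in all libraries, and the part of muscle RNA was not tested. Cacna1s, the muscle pore that Cacnb1 is known to join, did not exceed 0.262 scaled FPKM. Cacnb1 was already listed by the study from these same libraries, as lower in both IOP groups, so its call is no independent support. In the fit used here, its difference between Mild IOP and Control was not called.

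Cacnb3 (chr15:98632328-98644536), the most abundant Cav beta gene and a usual partner of N-type pores, measured 41.3, 34.6 and 35.9 scaled FPKM in Control, 37.9, 30.2 and 29.2 with Mild IOP and 51.3, 44.2 and 42.8 with Moderate IOP. The Moderate IOP libraries lay above all 6 others. Cacnb3 was 1.42-fold higher, with 1 added to each value, in Moderate IOP than in Mild IOP (log2 0.50 ± 0.15 SE, FDR = 0.077). Its log2 difference between Moderate IOP and Control was 0.30 ± 0.15 (FDR = 0.37), on 353.5 to 682.2 derived fragments. The call was lost without Mild IOP replicates 2 (FDR = 0.23) or 3 (FDR = 0.18) and without Moderate IOP replicates 1 (FDR = 0.18) or 2 (FDR = 0.13). It was also lost with FPKM left unscaled (FDR = 0.13) and with upper quartile scaling (FDR = 0.13). Cacnb3 held 46.4% ± 2.68 (SD, n = 3) of the summed Cav beta level in Control, 46.8% ± 3.69 with Mild IOP and 59.4% ± 3.06 with Moderate IOP, while Cacnb1 held 24.5% ± 3.34, 16.5% ± 2.89 and 12.5% ± 3.55. Cacnb2 and Cacnb4 had means of 12.2 and 11.2 over the 9 libraries and overlapped between all groups. The sum of the class was 80.4 ± 6.76 in Control, 69.1 ± 4.58 with Mild IOP and 77.5 ± 3.68 with Moderate IOP.

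**Figure D4:**
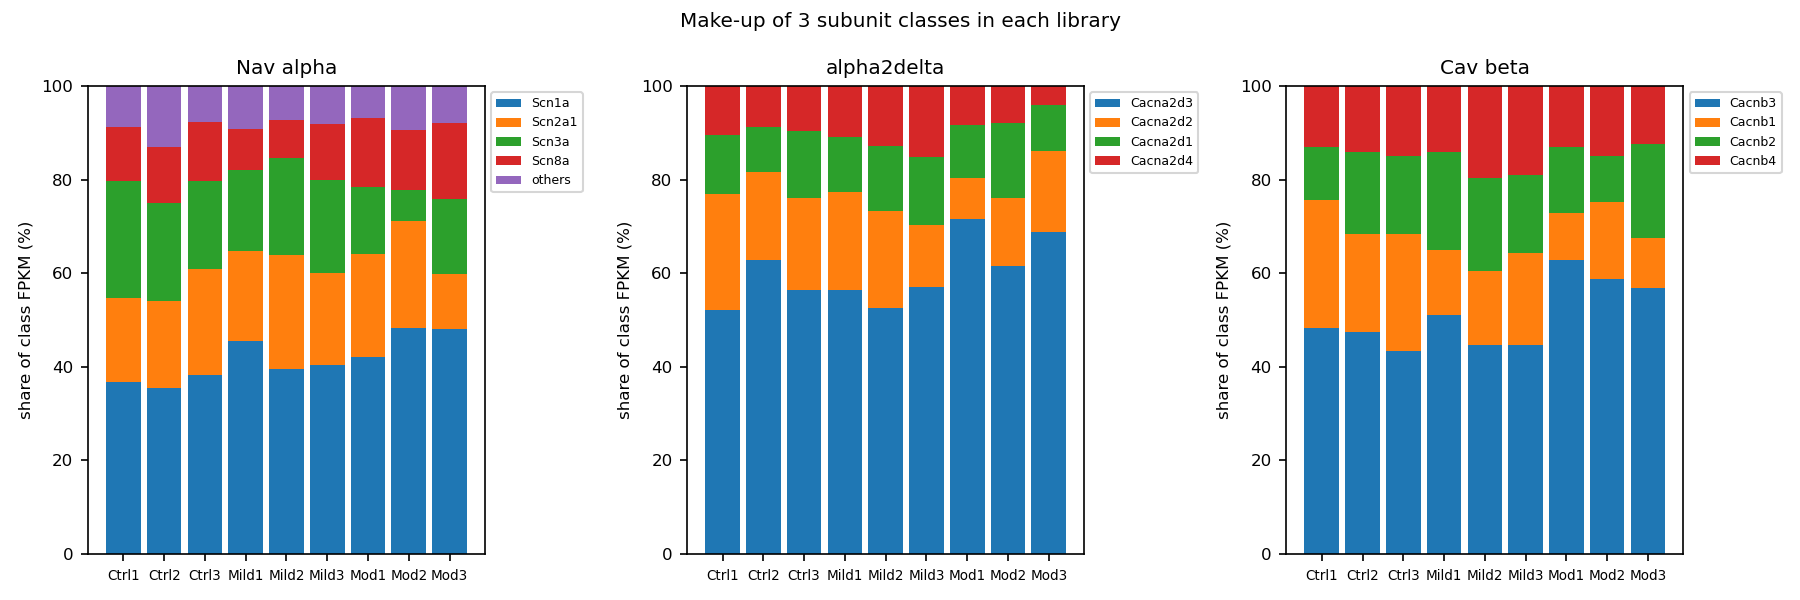
Share of each gene in the summed scaled FPKM of its class (percent) in each of the 9 libraries, for Nav alpha, alpha2delta and Cav beta subunits, with the genes of low level in Nav alpha summed as others. The Scn1a share is 35.4% to 48.4%, the Cacnb1 share has a mean of 24.5% in Control and of 12.5% in Moderate IOP, and the Cacnb3 share is highest in Moderate IOP at a mean of 59.4%.

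The Cacng genes were the most abundant of the set through Cacng3, and 1 of the 5 tested passed the test, Cacng2 in Moderate IOP against Mild IOP. Cacng2 (chr15:77993623-78119280), also known as stargazin, carries AMPA receptors to the synapse. It measured 8.87, 6.07 and 4.87 scaled FPKM in Control, 7.25, 3.96 and 5.20 with Mild IOP and 9.79, 11.0 and 10.4 with Moderate IOP. The 3 Moderate IOP libraries agreed closely and lay above the 6 others, which were spread. Cacng2 was 1.80-fold higher, with 1 added to each value, in Moderate IOP than in Mild IOP (log2 0.85 ± 0.25 SE, FDR = 0.077). Its log2 difference between Moderate IOP and Control was 0.62 ± 0.25 (FDR = 0.28). The values rest on 68.7 to 270.9 derived fragments. The call was kept in 3 of 9 fits that left out a library, those without Control replicate 1, Control replicate 3 or Mild IOP replicate 1. It was lost in the others with an FDR of 0.10 to 0.27, the highest without Mild IOP replicate 2. It was also lost with FPKM left unscaled (FDR = 0.101) and with upper quartile scaling (FDR = 0.105).

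Cacng3, a TARP of the same type as Cacng2, measured 174.2, 183.4 and 160.2 scaled FPKM in Control, 161.8, 145.0 and 146.7 with Mild IOP and 116.1, 120.3 and 141.7 with Moderate IOP. All Moderate IOP libraries lay below all others, and Mild IOP replicate 1 lay just above the lowest Control library. The log2 difference between Moderate IOP and Control was -0.45 ± 0.12 (SE, FDR = 0.11), just outside the threshold, and it was inside without scaling (FDR = 0.089), with the transcript length trend removed (FDR = 0.094) or without Moderate IOP replicate 3 (FDR = 0.0996). In the other fits it stayed outside, with an FDR up to 0.23 under other settings (no variance trend) and up to 0.27 with a library left out (Control replicate 1). Cacng3 held 57.3% to 72.2% of the class, whose sum was 246.7 ± 11.4 (SD, n = 3) in Control, 236.1 ± 16.1 with Mild IOP and 204.2 ± 9.17 with Moderate IOP. Cacng4 ranged from 30.7 to 58.7 and Cacng5, a TARP with weaker effects on the receptor, from 23.6 to 33.5 over the 9 libraries, and all Mild IOP libraries of Cacng5 (31.0 to 32.1) lay above all Control libraries (25.9 to 27.7) without passing the test (log2 0.24 ± 0.15, FDR = 0.64). Cacng7 was above 0 in 3 of 9 libraries with at most 9 derived fragments, and no fold change is given. Cacng1, Cacng6 and Cacng8 were at or near 0.

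A list of 51 partners of these channels was read from the same fit, and 47 were tested. Between Mild IOP and Control, 0 of 47 passed the test, against 0.399% of all tested genes. Between Moderate IOP and Control 1 of 47 passed, against 1.84% of all tested genes. It was Calm3, one of the calmodulin genes whose protein senses calcium on Nav and Cav channels, with a log2 difference of 0.84 ± 0.12 (SE, FDR = 0.013). Between Moderate IOP and Mild IOP, 8 of 47 passed, against 10.2% of all tested genes. Of these, 4 were higher (7.03% of all tested genes) and 4 were lower (3.12%). Among the higher ones were the calcium sensors Calm2 (log2 0.63 ± 0.13, FDR = 0.023), Calm3 (0.73 ± 0.12, FDR = 0.010) and Cabp1 (0.68 ± 0.14, FDR = 0.023), which competes with calmodulin on Cav channels. Cabp1 had means of 56.55 scaled FPKM in Control, 35.4 with Mild IOP and 57.08 with Moderate IOP. Its log2 difference to Control was 0.008 for Moderate IOP (FDR = 0.99) and -0.67 for Mild IOP (FDR = 0.12). The 4 lower ones were the AMPA receptor subunits Gria3 (log2 -0.56 ± 0.18, FDR = 0.089) and Gria4 (-0.56 ± 0.13, FDR = 0.032), the sodium leak channel Nalcn (-0.80 ± 0.24, FDR = 0.076) and Sptbn4 (-0.76 ± 0.23, FDR = 0.079), the beta-IV spectrin of the axon initial segment. Calm3 measured 170.6, 142.3 and 162.6 scaled FPKM in Control, 161.4, 156.9 and 195.8 with Mild IOP and 270.5, 278.8 and 300.7 with Moderate IOP, with no overlap between Moderate IOP and the others. Gria4, whose receptors TARPs bind, ranged from 52.7 to 58.5 in Control, 65.4 to 83.4 with Mild IOP and 45.1 to 52.5 with Moderate IOP. The median log2 difference of the 47 partners between Moderate and Mild IOP was -0.07.

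Transcript length moved with the comparisons and is given beside these results. The longest transcript of the 29 tested channel genes had a median of 6079 nt, with a longest of 11436 nt (Scn8a), against 3060 nt over the 12934 tested genes with a length, and 18 of 29 had at least 5000 nt. Over all tested genes, the median log2 difference between Moderate and Mild IOP was 0.31 for transcripts under 2000 nt and -0.14 for those of at least 5000 nt, which is the median of the channel genes as well. Between Mild IOP and Control the corresponding medians were -0.19 and 0.10, and between Moderate IOP and Control 0.13 and -0.04. When the trend with length was removed from each library, calls over all genes between Moderate and Mild IOP went from 1324 to 480. Among the channel genes, Cacnb3, Cacng2 and Scn2b kept their calls and Cacna2d4 did not. Of the called genes, Cacnb3 has a transcript of 2734 nt, Cacnb1 of 3396 nt, Scn2b of 4656 nt, Cacng2 of 5510 nt and Cacna2d4 of 5803 nt.

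**Figure D5:**
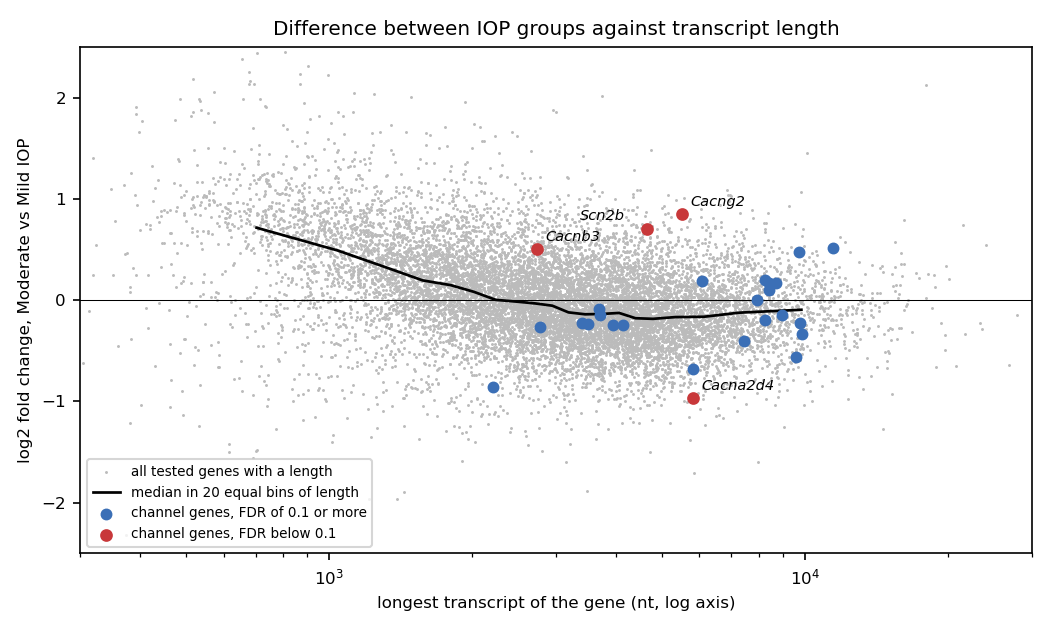
Log2 fold change between Moderate IOP and Mild IOP against the longest transcript of each tested gene (grey; 44 genes lie outside the axes), with the median in 20 bins of equal size (black line) and tested channel genes in blue or, with an FDR below 0.1, in red. The line runs from above 0 at short transcripts to below 0 at long ones, where most channel genes lie.

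The 200 bases before the transcription start are shown for Cacnb1, Cacnb3, Cacng2 and Scn2b, which passed the test in a comparison. Cacna2d4 also passed but had no entry among the sequences used, and of the 2 starts of Cacnb1 the one farther upstream is given. They were taken from RefSeq on GRCm38.p6, where 30 of the 40 genes had an entry with 41 starts in all, and are written on the strand of the gene from 5′ to 3′, the last base next to the start. Capitals mark the letters of motifs that were searched on both strands: the GC box GGGCGG, the TATA box TATAAA and the left and right parts of the RE1 element bound by the neuronal repressor REST, TCAGCACC and GGACAGC. None of these motifs contains another.
Cacnb1, chr11:98022628-98022827 (- strand): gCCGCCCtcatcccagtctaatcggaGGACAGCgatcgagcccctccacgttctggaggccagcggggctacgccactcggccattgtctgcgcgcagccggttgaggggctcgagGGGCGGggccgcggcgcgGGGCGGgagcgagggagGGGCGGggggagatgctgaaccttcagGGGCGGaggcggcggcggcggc
Cacnb3, chr15:98632128-98632327 (+ strand): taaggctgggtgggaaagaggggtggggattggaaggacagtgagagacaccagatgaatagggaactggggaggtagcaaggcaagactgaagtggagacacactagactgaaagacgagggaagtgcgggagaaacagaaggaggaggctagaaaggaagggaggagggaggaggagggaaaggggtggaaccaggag
Cacnb3, chr15:98634567-98634766 (+ strand): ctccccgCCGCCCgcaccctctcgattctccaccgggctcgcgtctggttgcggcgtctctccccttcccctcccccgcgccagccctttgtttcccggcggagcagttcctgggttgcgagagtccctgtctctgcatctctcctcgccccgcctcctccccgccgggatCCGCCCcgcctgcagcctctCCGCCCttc
Cacng2, chr15:78119281-78119480 (- strand): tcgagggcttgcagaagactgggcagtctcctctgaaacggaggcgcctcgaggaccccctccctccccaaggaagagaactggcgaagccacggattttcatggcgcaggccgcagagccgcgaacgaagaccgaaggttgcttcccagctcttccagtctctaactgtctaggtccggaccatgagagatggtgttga
Scn2b, chr9:45117676-45117875 (+ strand): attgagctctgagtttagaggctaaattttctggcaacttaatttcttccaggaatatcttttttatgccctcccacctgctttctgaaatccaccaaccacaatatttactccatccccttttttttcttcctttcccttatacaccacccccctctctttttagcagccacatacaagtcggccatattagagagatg
The GC box was found in windows of Cacnb1 and Cacnb3. The start of Cacnb1 shown had a GC content of 75.0%, with 5 GC boxes and 1 right part of RE1, its other start had 55.5% GC and 0 GC boxes, and the 2 starts of Cacnb3 differed, with 0 GC boxes at 55.5% GC and 3 at 72.0% GC. The windows of Cacng2 (59.5% GC) and Scn2b (41.0%) held none of the motifs. Over all 41 windows of the channel genes, 15 held a GC box, against 31.0% of the 32851 windows in RefSeq, 2 held a TATA box (9.96% of all windows), 0 the left part of RE1 (1.10%) and 1 the right part (4.22%). The median GC content was 57.0% in the channel gene windows and 53.0% in all windows. A match is a description of these letters and says nothing of binding, and the absence of one says only that the letters are not in this window.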

How the data were processed

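RGC RNA was pooled per group and split into 3 technical replicates, giving 9 libraries made from oligo-dT primed cDNA without strand marking. The authors aligned the reads to mm10 and estimated expression with Cufflinks; the submitters' processing notes also name FastQC, Trimmomatic, TopHat2 and Cuffdiff, and the paper names bowtie2 as the aligner. The deposited values are FPKM per locus with a confidence interval, made by the authors for each library, and FPKM of loci with one symbol were summed. Fragments per value were derived as the square of 2 × FPKM / (upper bound − FPKM), and depth from genes of 100 fragments or more whose longest GENCODE transcript (basic annotation) reached 2000 nt. Intervals and fragments cover counting error only.

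Median-of-ratios factors (0.983 to 1.06) scaled the libraries. They were 1.005 to 1.023 in Control, 1.04 to 1.06 with Mild IOP and 0.983 to 1.00 with Moderate IOP. A gene entered the fit when its estimate had failed in no library and its mean over the 9 libraries reached 0.5 scaled FPKM, which left 13043 genes. With limma 3.58.1 (R 4.3.3), log2(scaled FPKM + 1) was modelled by 1 mean per group, with moderated variances that follow a trend with level. The script was tested on simulated data for Moderate IOP against Control. There, 46 of 100 genes changed by a log2 of 1 and 89 of 100 changed by 2 were recovered, with 15 false calls. A gene that was not called was therefore not shown to be unchanged. P-values were adjusted over all tested genes by the Benjamini-Hochberg method, and an FDR below 0.1 was called. Tables and figures were made in Python 3.11.15. Genes named in full were those called, the 2 highest of each subunit class, and Cacnb1; genes described beside them because their groups did not overlap, or because a call changed, were chosen after their values were seen. The members and lists were chosen with earlier results of these data known. Alternatives changed the scaling, pseudocount, filter, failed estimates, loci, variance, replicate block and length trend, and left out each library. Reads were not realigned. A few genes and sequences selected by these rules are not reported here.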

Additional observations from a re-analysis of the deposited data

How the results depend on the processing

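The counts of channel genes called between Moderate IOP and Control (1) became 2 with no scaling or with the transcript length trend removed, adding Cacng3, and 0 with no filter on low values, with the variance from the compared groups only, with no variance trend and with the replicate block. Between Moderate IOP and Mild IOP (4) the count became 1 with no scaling or upper quartile scaling, where Cacna2d4 stayed and Cacnb3, Cacng2 and Scn2b were lost. It became 2 with no filter, with the variance from the compared groups only and with no variance trend. With each library left out it ranged from 0 to 1 and from 0 to 4, and it stayed at 0 between Mild IOP and Control under every alternative run. Partner genes called between Moderate IOP and Control (1) became 2 with no scaling, with no filter and with the length trend removed, and between Moderate and Mild IOP (8) they became 5 with no filter or the compared groups only and 4 with the length trend removed. Leaving out a library gave 0 to 1 partner genes in Mild IOP against Control, 1 to 2 in Moderate IOP against Control and 4 to 8 in Moderate against Mild IOP. The cause was not tested.

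Of 624 log2 differences of named genes under settings other than leaving out a library, 597 kept their direction and their side of the threshold, 18 lost and 2 gained a call and 7 turned sign. None of the 7 was called under any of these settings: Scn2b in Mild IOP against Control (0.027 with upper quartile scaling), Scn3b in Mild IOP against Control (-0.014 with the length trend removed), Cacng4 in Moderate IOP against Control (0.026, length trend), Cacna2d3 in Moderate against Mild IOP (0.026, length trend) and Cacna1a in Moderate against Mild IOP (-0.070 with no scaling, -0.084 with upper quartile scaling and -0.0027 with a pseudocount of 0.1). Of 513 with a library left out, 460 stayed, 27 lost and 3 gained a call and 23 turned sign, none of these called. The ranges of the results that turned were, in Mild IOP against Control, -0.0018 to 0.25 for Cacna1a, -0.27 to 0.12 for Cacna1b, -0.40 to 0.029 for Cacna2d2, -0.17 to 0.018 for Cacna2d3, -0.17 to 0.030 for Scn2b and -0.059 to 0.15 for Scn3b. In Moderate IOP against Control they were -0.051 to 0.17 for Cacna1f, -0.25 to 0.11 for Cacna1i, -0.35 to 0.032 for Cacna2d3 and -0.21 to 0.081 for Cacng4. In Moderate against Mild IOP they were -0.10 to 0.21 for Cacna1a, -0.13 to 0.40 for Cacna1g, -0.25 to 0.13 for Cacna2d3 and -0.27 to 0.076 for Scn2a1.

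Replicates with the same number did not deviate together: the correlations of their deviations from the group means lay between -0.005 and 0.04, so the numbers were not taken as pairs. With the replicate block, calls among channel genes went from 1 to 0 between Moderate IOP and Control and from 4 to 3 between Moderate and Mild IOP. Depth limits the low members most: Cacna2d4, at a mean of 3.03 scaled FPKM, rests on 37.6 to 194.0 derived fragments per library, and the 11 genes not tested on at most 88.9.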
